A study of Homo sapiens with 18 samples.

Results

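The response of SW620 cells, a human colon cancer line, to the first hour back at 37 °C after a heat shock was measured in cells that carried a scramble siRNA. In 3 libraries (HS) the cells had been held at 42 °C for 1 h, and in 3 others (HS + REC) the same heat shock was followed by 1 h at 37 °C. These are 6 of the 18 RNAseq libraries of the study, all from this single line and all with the same non-targeting siRNA, so that neither group holds untransfected cells. The other groups, used here only as references, were scramble siRNA cells kept at 37 °C (Ctrl) and cells with an siRNA against Lonp1 (siLonp1) in Ctrl, HS and HS + REC, again with 3 libraries each. Replicates were independent biological samples by the methods of the paper.

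Genes with more than 1 CPM (counts scaled to a common library size) in at least 3 of the 6 scramble HS and HS + REC libraries were examined, which held for 12460 of the 26485 gene symbols in the table. At the edge of this rule, ALPP reached 1.00 CPM in the last of the 3 libraries it needed and was kept, whereas SPTB, at 0.999991 CPM there, was not. The 6 libraries held between 30815860 and 47279297 counts, HS replicate 3 having the fewest, and TMM scaling factors ran from 0.983 to 1.03. Of 10 colon epithelial markers 8 passed the filter and their list summed to between 8675 and 10335 CPM in every library, with CDX1 at 0 counts in all 6 and CDH1 changing most, by -0.26. The 6 fibroblast markers summed to 42.6 to 45.9 CPM in HS and to 62.1 to 62.4 CPM in HS + REC, with COL3A1 at 0, the 6 leukocyte markers to 19.4 to 21.4 CPM with CD3E at 0, and the 4 endothelial markers to 0.635 to 1.16 CPM with KDR at 0. COL1A1 moved by 0.81 within the fibroblast list, and its part in other results was not tested. LONP1, the protease silenced in the other arm, measured 220.1, 229 and 196 CPM in HS and 223, 195 and 235 CPM in HS + REC, and the groups overlapped. RPS18, the reference gene of the qRT-PCR of the study, moved by 0.16 (log2, SE 0.11).

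Heat unfolds proteins and frees heat shock factor 1 (HSF1) from chaperones, after which HSF1 forms trimers, binds heat shock elements in promoters and drives transcription of chaperone genes. The chaperones made in this way bind HSF1 again and dampen the response once the stress has passed. Heat also activates MAP kinases, which turn on immediate early genes whose mRNAs are short-lived, and many other genes are transcribed or processed less while the stress lasts. The comparison of HS + REC with HS asks which mRNAs went on rising after the heat had ended, and which had already fallen back.

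In the recovery hour 107 genes rose more than 2-fold and 103 fell more than 2-fold with an FDR (Benjamini-Hochberg) not above 0.05, which is 0.859% and 0.827% of the genes tested (edgeR quasi-likelihood test). The raised genes included HSPH1 and HSPA4L of the HSP110 family, the HSP90 partners CHORDC1 and FKBP4, and some genes of the ER unfolded protein and integrated stress responses and of the metallothioneins. The lowered genes were led by the immediate early genes FOS and EGR1 and held some MAP kinase phosphatase and zinc finger genes and HSPA6. Without the limit on fold, 1712 genes were higher (13.7%) and 1705 lower (13.7%), and the median log2 change of all genes was 0.01. Median changes were 1.24 among the raised and -1.22 among the lowered genes, and 13 and 8 of them moved more than 4-fold. The median level was 5.96 CPM for raised genes and 8.97 CPM for lowered genes against 30.8 CPM for all genes tested. Of the raised genes 24 exceeded 1 CPM in HS + REC libraries alone, and of the lowered genes 8 exceeded it in HS libraries alone, so that these entered the test through the group in which they were high.

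**Figure D1:**
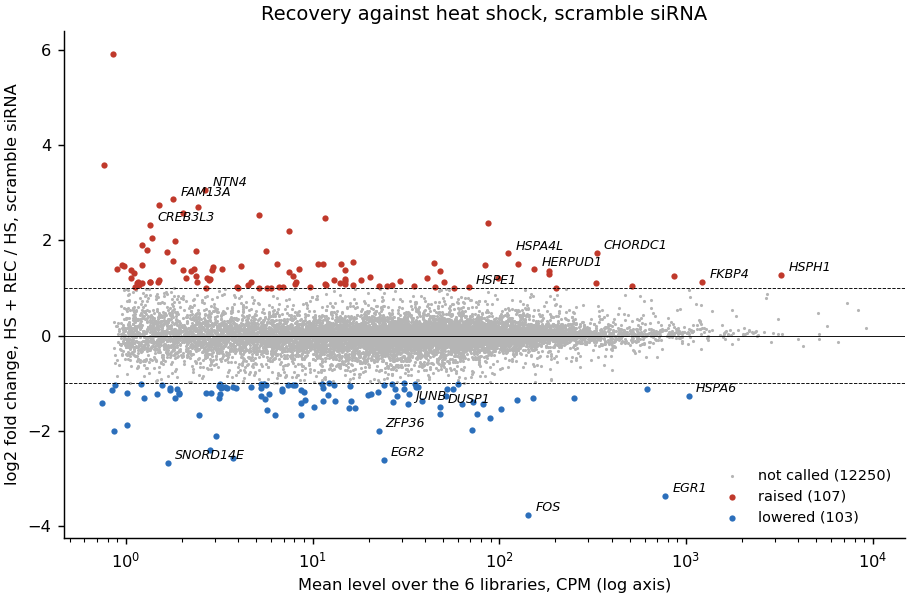
Log2 fold change of HS + REC over HS in scramble siRNA cells (vertical axis) against the mean CPM over the 6 libraries (horizontal log axis), with each point a gene, red for the 107 raised, blue for the 103 lowered and grey for the other genes, and dashed lines at a 2-fold change. The genes with the highest levels among those called are the chaperone HSPH1 and FKBP4 on the raised side and EGR1 and HSPA6 on the lowered side.

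The raised and lowered genes differed in where they stood against unheated cells. After recovery 84 of the 107 raised genes were more than 2-fold above Ctrl at the same FDR, and none was 2-fold below it, beside 3.59% and 0.626% of all genes tested. Of the 107, 27 had already been raised in HS against Ctrl, 13 had been lowered and 67 had passed neither limit, where 2.85% of all genes were raised in HS and 0.281% lowered. Among the 103 lowered genes 51 had been raised in HS and none lowered. After recovery 12 of these 103 were still more than 2-fold above Ctrl, 22 were more than 2-fold below it and 34 passed no FDR in either direction, as did 57.5% of all genes. The HS libraries are shared between these comparisons, so the counts place the genes and are no separate evidence of their change.

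In each of the 6 chaperone lists more genes were higher than lower at FDR alone after the cells had left 42 °C, with many members that did not pass, beside 13.7% higher and 13.7% lower of all genes. Among 16 tested genes of the HSP70 and HSP110 families, 2 were raised and 2 lowered past 2-fold, beside 0.859% and 0.827% of all genes. At FDR alone 11 were higher and 3 lower, with a median of 0.42. HSPH1, the HSP110 that exchanges nucleotide on HSP70 and takes part in dissolving aggregates, measured 1910.0, 1929 and 1827 CPM in HS and 4105, 5012 and 4594 CPM in HS + REC. All HS + REC libraries stood above all HS libraries, with a log2 change of 1.27 (standard error 0.08, adjusted p = 6.4e-11). In Ctrl it measured 280.0, 265 and 282 CPM, so that the level rose in both steps. HSPA4L, another HSP110 family member, went from 53.9, 53.9 and 48.2 CPM in HS to 164, 201 and 151 CPM in HS + REC, a log2 change of 1.72 (standard error 0.09, adjusted p = 2.6e-12). HSPA4, the remaining cytosolic HSP110, changed by 0.75 and thus stayed within 2-fold.

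The major cytosolic HSP70s rose by less. HSPA8, the constitutive HSP70 and one of the most abundant mRNAs measured, had 6651, 6266 and 7368 CPM in HS and 8783, 10479.6 and 10307 CPM in HS + REC, a change of 0.54 (adjusted p = 5.6e-06). HSPA1A and HSPA1B, the inducible HSP70s, are near-identical copies between which reads cannot be assigned with certainty. Their values were 2045, 2037 and 1869 CPM in HS and 3253, 3182 and 3782 CPM in HS + REC for HSPA1A, a change of 0.78 (adjusted p = 6.6e-07), and the change of HSPA1B was 0.35 (edgeR adjusted p = 0.019). HSPA1B did not pass without HS replicate 3 or HS + REC replicate 3 (highest adjusted p = 0.071). Their neighbour HSPA1L changed by 0.38. The organelle HSP70s were higher too, with HSPA5 of the endoplasmic reticulum at 0.59 and HSPA9 of mitochondria at 0.29, although neither had been higher in HS than in Ctrl (-0.45 and -0.08).

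HSPA6 went the other way. This strictly heat-inducible HSP70 was at 2.19, 2.22 and 3.35 CPM in Ctrl, at 1462, 1466 and 1446 CPM in HS and at 447, 624 and 749 CPM in HS + REC. Every HS + REC library lay far above Ctrl and below every HS library. The log2 change was -1.26 (standard error 0.18, adjusted p = 1.4e-05), and 41.5% of the heat-induced increase over Ctrl was left after 1 h. HSPA7, a neighbouring and nearly identical HSPA6 copy whose reads may belong to HSPA6, fell with it, from 13.3 ± 2.13 CPM to 4.15 ± 0.738 CPM (SD, n = 3 libraries each).

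Of 14 tested HSP90 genes and cochaperones, 2 were raised past 2-fold, beside 0.859% of all genes. At FDR alone 8 were higher and 1 lower, beside 13.7% of all genes each way, and 5 did not pass, with a median of 0.58. CHORDC1, an HSP90 cochaperone, measured 155, 149.9 and 155 CPM in HS and 484, 572 and 480.0 CPM in HS + REC. HS had moved it little, from 109, 103 and 108 CPM in Ctrl, and the recovery step was the larger one, at 1.74 (standard error 0.07, adjusted p = 1.1e-13). FKBP4, a peptidyl-prolyl isomerase that binds HSP90 in steroid receptor complexes, measured 755, 788 and 754 CPM in HS and 1464, 1727 and 1837 CPM in HS + REC, a change of 1.13 (standard error 0.08, adjusted p = 1.7e-10). Other partners rose by less than 2-fold. PTGES3, the p23 cochaperone, changed by 0.95, AHSA1, the activator of HSP90's ATPase, by 0.85, and STIP1, which joins HSP70 to HSP90, by 0.81. HSP90AA1 and HSP90AB1, the cytosolic HSP90s, changed by 0.67 and 0.48, while HSP90B1 of the endoplasmic reticulum, at 0.14, did not pass (adjusted p = 0.074).

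Smaller chaperone families moved in the same direction where they passed the test. Among 38 J-domain cochaperones, which stimulate HSP70, 2 were raised and none lowered past 2-fold, beside 0.859% and 0.827% of all genes. At FDR alone 16 were higher and none lower, beside 13.7% of all genes each way, with a median of 0.14. The 16 became 10 without HS replicate 1, and 1 gene was lower without HS replicate 3 or HS + REC replicate 1. DNAJB6, which holds back aggregation of polyglutamine proteins, measured 214, 206 and 209 CPM in HS and 419, 481 and 459 CPM in HS + REC (log2 change 1.11). DNAJB1, the main cytosolic partner of HSP70, stood at 5186, 5205 and 5579 CPM in HS and 5192, 6430.0 and 6729 CPM in HS + REC, and these groups overlapped (change 0.20, adjusted p = 0.18). All but 1 of 10 chaperonin genes, the barrel-shaped folding machines, were higher at FDR alone, with a median of 0.36, and HSPE1, the lid of the mitochondrial chaperonin, was raised by 1.01. The range without each library in turn was 0.92 to 1.14 for HSPE1, with the 2-fold limit met in 2 of 6 such fits (those without HS replicate 3 or HS + REC replicate 1), and reads of the read-through gene HSPE1-MOB4 cannot be fully separated from it. Of 4 small heat shock proteins tested 2 were higher at FDR alone (1 without HS replicate 1 or HS + REC replicate 2), including CRYAB, alpha B-crystallin, at 3.20, 3.57 and 5.25 CPM in HS and 6.08, 8.36 and 9.33 CPM in HS + REC. The change of CRYAB was 1.01, between 0.87 and 1.23 without each library in turn and past 2-fold in the same number of those fits. HSPB1, HSP27, did not pass (0.29, adjusted p = 0.096).

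Among 10 nucleotide exchange factors no gene moved 2-fold. BAG3, the HSP70 partner in autophagy of aggregates, was higher by 0.52 and BAG4 lower by -0.59. HSF1 itself stayed at 96.5 ± 5.00 CPM in HS and 95.5 ± 9.99 CPM in HS + REC (SD, n = 3 libraries), overlapping groups with a change of -0.02. HSF2, its paralogue, fell by 0.46 on the log2 scale (adjusted p = 1.4e-05) beside 0.02 in HS against Ctrl. Of 37 proteasome subunits none passed 2-fold, 9 were higher and none lower at FDR alone, beside 13.7% of all genes each way (median 0.11), PSMD6 moving most at 0.38. The 9 became 5 without HS replicate 1, 4 without HS replicate 2 and 16 without HS replicate 3. The 7 polyubiquitin and autophagy receptor genes gave 3 higher at FDR alone with TAX1BP1 first at 0.45.

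**Figure D2:**
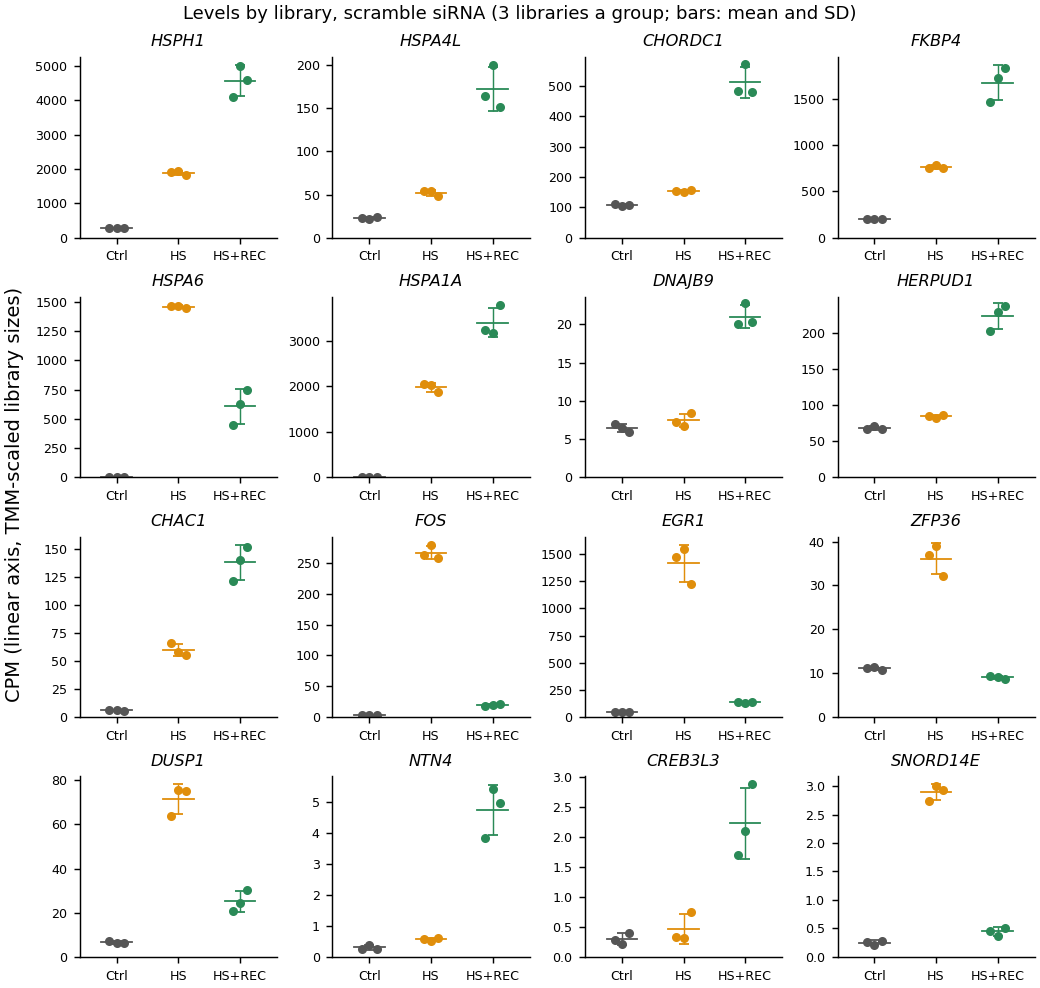
CPM on linear axes from 0 for 16 genes in Ctrl, HS and HS + REC libraries with scramble siRNA, where points are libraries and bars give the mean and SD of 3. HSPH1, HSPA4L, CHORDC1 and FKBP4 are highest in HS + REC, HSPA6, FOS, EGR1, ZFP36, DUSP1 and SNORD14E are highest in HS, and DNAJB9, HERPUD1, NTN4 and CREB3L3 stay near their Ctrl level in HS and are high in HS + REC.

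The promoters were searched for the heat shock element, 3 alternating units of 5 bases read here as GAANNTTCNNGAA or TTCNNGAANNTTC on either strand, in the 250 bases before the annotated start (RefSeq, GRCh38.p14). Promoters were found for 79 of the 107 raised and 83 of the 103 lowered genes. The element was present in 5 raised promoters (6.33%), in 1 lowered promoter (1.2%) and in 28 of the 10035 promoters of all genes tested (0.279%). The 5 raised genes were CHORDC1, DNAJB6, FAM149A, TDRG1 and ABHD3, and the lowered one was HSPA6. FAM149A exceeded 1 CPM in HS + REC libraries alone, so that it had to be higher there to be tested, and the raised share rests in part on such genes. Of these, 4 are printed from 5′ to 3′ up to the base before the start, 3 from genes that rose in this hour and HSPA6 as the one that fell, with matched bases in capitals. They lie at chr11:90223050-90223299 (minus strand) for CHORDC1, chr7:157336754-157337003 (plus strand) for DNAJB6, chr4:186104454-186104703 (plus strand) for FAM149A and chr1:161524290-161524539 (plus strand) for HSPA6.
CHORDC1: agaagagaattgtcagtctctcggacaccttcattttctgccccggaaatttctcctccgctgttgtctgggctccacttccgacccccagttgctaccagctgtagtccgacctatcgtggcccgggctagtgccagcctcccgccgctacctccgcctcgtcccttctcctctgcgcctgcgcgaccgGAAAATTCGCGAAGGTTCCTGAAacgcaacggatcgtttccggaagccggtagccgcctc
DNAJB6: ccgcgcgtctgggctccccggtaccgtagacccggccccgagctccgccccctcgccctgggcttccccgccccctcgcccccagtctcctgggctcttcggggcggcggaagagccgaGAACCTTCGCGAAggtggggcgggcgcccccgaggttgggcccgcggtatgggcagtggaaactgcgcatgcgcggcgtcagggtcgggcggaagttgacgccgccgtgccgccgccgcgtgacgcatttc
FAM149A: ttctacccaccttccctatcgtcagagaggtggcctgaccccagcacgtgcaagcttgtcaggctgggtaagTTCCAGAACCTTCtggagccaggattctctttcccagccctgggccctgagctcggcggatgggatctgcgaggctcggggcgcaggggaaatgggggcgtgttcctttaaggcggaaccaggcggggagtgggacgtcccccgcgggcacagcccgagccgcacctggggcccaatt
HSPA6: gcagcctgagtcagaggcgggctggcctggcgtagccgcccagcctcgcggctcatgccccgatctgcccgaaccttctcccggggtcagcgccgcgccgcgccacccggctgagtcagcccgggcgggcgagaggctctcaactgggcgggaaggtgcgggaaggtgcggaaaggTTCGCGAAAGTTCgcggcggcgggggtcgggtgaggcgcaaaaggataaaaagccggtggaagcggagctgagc
The CHORDC1 run holds 3 overlapping matches from base 60 to base 38 before the start. HSPA6 holds 1 match from base 74 to base 62, and DNAJB6 and FAM149A have theirs farther out, from base 131 and base 178. A match is a description of these letters and not of binding, and a promoter with no match in this window, such as that of HSPH1, may hold looser forms of the element or hold it elsewhere.

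Some genes of the endoplasmic reticulum and amino acid stress pathways rose after the heat as well. Of 16 genes of the ER unfolded protein response 3 were raised, 6 were higher and none lower at FDR alone, 10 did not pass, beside 0.859% of all genes raised and 13.7% higher, and the median was 0.12. HERPUD1, a membrane protein of ER-associated degradation, measured 85.4, 82.5 and 86.5 CPM in HS and 203, 228 and 238 CPM in HS + REC, a change of 1.39 (standard error 0.08, adjusted p = 9.6e-12). Its Ctrl libraries had 66.3, 70.8 and 67.3 CPM, close to HS. DNAJB9, a J-domain cochaperone of the ER lumen, measured 7.26, 6.66 and 8.40 CPM in HS and 20.1, 22.8 and 20.3 CPM in HS + REC (change 1.51, adjusted p = 3.1e-10). It is counted among the raised genes of the J-domain list as well. XBP1, the transcription factor spliced by the ER stress sensor IRE1, was higher by 1.00 (adjusted p = 4.1e-10). It lay on the 2-fold limit, between 0.96 and 1.08 without each library in turn, and passed the limit only in the fits without HS replicate 3 or HS + REC replicate 1.

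The integrated stress response, in which phosphorylation of eIF2 alpha favours translation of ATF4, had 21 tested genes, of which 3 were raised, 14 higher and 2 lower at FDR alone (median 0.42), beside 0.859%, 13.7% and 13.7% of all genes. SESN2, a leucine sensor that restrains mTORC1, measured 49.0, 46.3 and 37.6 CPM in HS and 125, 116 and 132 CPM in HS + REC and had 11.3, 10.5 and 11.4 CPM in Ctrl. CHAC1, which degrades glutathione, measured 65.6, 58.2 and 55.7 CPM in HS and 121, 140.2 and 152 CPM in HS + REC. VLDLR, a lipoprotein receptor, was at 6.21, 6.93 and 6.04 CPM in Ctrl, 5.88, 6.28 and 5.69 CPM in HS and 16.4, 18.6 and 15.6 CPM in HS + REC. The log2 changes were 1.48 for SESN2, 1.2 for CHAC1 and 1.5 for VLDLR, each with no overlap between groups and adjusted p-values of 1.6e-10, 5.9e-08 and 5.4e-10. DDIT3, which encodes CHOP, and TRIB3, a pseudokinase induced by it, were higher by 0.61 and 0.80. ATF4 mRNA changed by -0.09 and DDIT4, the mTORC1 inhibitor REDD1, by -0.26, and neither passed (adjusted p = 0.24 and 0.2). ATF3, a stress transcription factor, changed by 0.47 (edgeR adjusted p = 0.032), a pass at FDR that was lost without HS replicate 1, HS replicate 2, HS + REC replicate 2 or HS + REC replicate 3 (highest adjusted p = 0.13) and with DESeq2 (adjusted p = 0.081).

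Named after their values were seen, SLC38A2, a neutral amino acid transporter, INHBE, an inhibin subunit, and ADM2, a peptide hormone, were raised as well. SLC38A2 went from 557, 505 and 466 CPM to 1239, 1291 and 1093 CPM, a change of 1.25, and INHBE and ADM2 changed by 1.38 and 1.19. The amino acid response element bound by ATF4, read as TGATGNAAN, was in 4 of 79 raised promoters (5.06%), CHAC1 and HERPUD1 among them, in 2 of 83 lowered promoters (2.41%) and in 1.28% of all. The ER stress response element, a CCAAT box and a CCACG box at a fixed distance, was in 2 raised promoters (2.53%), those of XBP1 and FICD, in no lowered one and in 0.14% of all. The CHAC1 promoter at chr15:40953221-40953470 (plus strand) and the XBP1 promoter at chr22:28800570-28800819 (minus strand) are given with these matches in capitals, as examples of a gene that rose in both steps and one that rose mainly in the recovery step.
CHAC1: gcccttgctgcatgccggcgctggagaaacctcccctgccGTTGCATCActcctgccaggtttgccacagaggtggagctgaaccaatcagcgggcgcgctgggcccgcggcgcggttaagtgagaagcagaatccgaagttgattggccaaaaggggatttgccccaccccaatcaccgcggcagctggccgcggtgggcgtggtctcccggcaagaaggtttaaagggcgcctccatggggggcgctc
XBP1: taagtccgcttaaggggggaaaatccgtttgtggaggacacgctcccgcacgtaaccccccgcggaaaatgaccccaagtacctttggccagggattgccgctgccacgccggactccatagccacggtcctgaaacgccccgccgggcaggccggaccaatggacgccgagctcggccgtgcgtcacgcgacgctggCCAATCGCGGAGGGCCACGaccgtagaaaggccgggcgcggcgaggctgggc

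Metallothioneins, small cysteine-rich proteins that bind zinc and copper, had the highest median of the lists, 0.88. Of 7 tested 3 were raised, 6 higher and none lower at FDR alone, beside 0.859% raised and 13.7% higher of all genes. MT1E measured 17.7, 17.0 and 20.6 CPM in HS and 41.3, 40.9 and 39.2 CPM in HS + REC and 19.8, 18.9 and 17.5 CPM in Ctrl. Its change was 1.14 (standard error 0.10, adjusted p = 7.4e-09), and HS alone had not moved it (-0.03). MT2A, the most abundant of them, measured 143, 139.6 and 151 CPM in HS and 271, 249.8 and 263 CPM in HS + REC, a change of 0.86 just short of 2-fold. MT1F and MT1H were raised by 1.22 and 1.90 from low levels, 1.66 ± 0.358 CPM and 0.501 ± 0.159 CPM in HS (SD, n = 3 libraries), and MT1H exceeded 1 CPM in HS + REC libraries alone. These genes are close copies, so that the split of reads among them is uncertain. The metal response element, read as TGCACNC or TGCGCNC on either strand, was in 20 of 79 raised promoters (25.3%), in 30 of 83 lowered ones (36.1%) and in 33.7% of all. It was in each of the 3 metallothionein promoters found, those of MT2A, MT1H and MT1X.

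Of the 10 largest rises by the naming rule, 6 were in genes that exceeded 1 CPM in HS + REC libraries alone, NTN4, FAM13A, CHRNA2, FAM149A, TMPRSS9 and CREB3L3. These had to be higher in HS + REC to be tested, so their values are given as a description. NTN4, netrin 4 of basement membranes (chr12:95657807-95791189, GENCODE on hg38), led with 0.590, 0.513 and 0.598 CPM in HS and 3.84, 5.4 and 4.97 CPM in HS + REC, a log2 change of 3.06. FAM13A (chr4:88725955-89111398), a gene with a RhoGAP domain, measured 0.386, 0.401 and 0.535 CPM in HS and 2.57, 3.40 and 3.51 CPM in HS + REC. CHRNA2, a nicotinic acetylcholine receptor subunit, was nearly absent in Ctrl, with 0, 0 and 1 counts, and had 15, 17 and 15 counts in HS and 96, 111 and 136 in HS + REC. TMPRSS9, a serine protease, and CACNA1G, a T-type calcium channel subunit, followed the same order, at 2.67 ± 0.0528 CPM and 12.3 ± 2.14 CPM for CACNA1G. FAM149A did not change in HS (-0.13) and rose by 2.7 in recovery.

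Several of these rises reached higher levels. ABTB2, an ankyrin repeat and BTB domain protein, measured 31, 30.8 and 23.3 CPM in HS and 132, 146 and 160.4 CPM in HS + REC, a change of 2.36 (standard error 0.10, adjusted p = 1.3e-13) from an HS level close to that of Ctrl. DHRS2, a short-chain dehydrogenase, measured 3.34, 3.34 and 4.03 CPM in HS and 18.3, 18.2 and 22.7 CPM in HS + REC (change 2.48). MIR17HG, the host transcript of the miR-17-92 cluster, had 7.65, 8.77 and 10.1 CPM in Ctrl, 1.43, 1.65 and 1.51 CPM in HS and 10.2, 8.82 and 7.44 CPM in HS + REC. It was the one gene among these 10 that had fallen in HS by more than 2-fold, and its HS + REC libraries lay around the Ctrl level. CREB3L3, a membrane-bound transcription factor of liver and gut that was also a qRT-PCR target, rose by 2.33 from 15, 14 and 24 counts in HS to 74, 86 and 134 in HS + REC. The 9 qRT-PCR targets, a list picked on these same samples and so not independent evidence, gave 1 raised and 1 lowered. At FDR alone 6 of the 9 were higher and 2 lower. Of all genes 0.859% were raised, 0.827% lowered, 13.7% higher and 13.7% lower. Among the 9 targets RAB30, a small GTPase of the Golgi, stayed at -0.12 (adjusted p = 0.43). TGFBR3, a TGF-beta co-receptor, fell by 0.64 on the log2 scale.

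MRC1, the macrophage mannose receptor, had 0, 2 and 1 counts in the HS libraries and 57, 79 and 82 in HS + REC, and was named after its values were seen. It exceeded 1 CPM in HS + REC libraries alone. The leukocyte markers fixed for this comparison did not move with it, with summed levels of 20.2 to 21.2 CPM in HS and 19.4 to 21.4 CPM in HS + REC. CLU, clusterin, an extracellular chaperone, went from 67.0, 66.9 and 62.6 CPM to 179, 181 and 199 CPM after 10.3, 9.80 and 11.6 CPM in Ctrl.

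Of 32 immediate early genes tested, 11 were lowered and none raised past 2-fold, 21 were lower and 5 higher at FDR alone, and the median was -0.49. Of all genes 0.827% were lowered, 13.7% lower and 13.7% higher, so that the 5 higher (15.6%, and 3 without HS replicate 1 or HS + REC replicate 2) lay near the background. FOS, a subunit of the AP-1 transcription factor (chr14:75278826-75282230, GENCODE on hg38), had 4.21, 3.83 and 4.04 CPM in Ctrl, 263, 279 and 259 CPM in HS and 17.6, 19.9 and 21.4 CPM in HS + REC. It fell by 3.76 (log2; standard error 0.12, adjusted p = 1.2e-15), and 5.94% of its heat-induced increase was left. EGR1, a zinc finger factor induced by MAP kinase signals, had 51.8, 45.3 and 46.9 CPM in Ctrl, 1473, 1546 and 1226 CPM in HS and 139, 132 and 142 CPM in HS + REC. Its change was -3.36 (standard error 0.12, adjusted p = 3.7e-15), with 6.57% of the increase left.

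The EGR1 relatives EGR2 and EGR3 fell by 2.61 and 1.99 on the log2 scale, from 41.4 ± 2.54 CPM and 114 ± 14.3 CPM to 6.77 ± 0.582 CPM and 28.8 ± 1.27 CPM (SD, n = 3 libraries). FOS, EGR1, EGR2 and EGR3 all remained above Ctrl, by 2.29, 1.52, 2.35 and 1.88. JUNB, an AP-1 subunit, measured 47.7, 48.9 and 45.8 CPM in HS and 16.6, 16.5 and 19.4 CPM in HS + REC, which brought it to a level not above that of Ctrl (20.9, 22.0 and 18.7 CPM). IER2, KLF10 and NR4A1, other early transcription regulators, changed by -1.30, -1.31 and -1.37. JUN fell by less, at -0.42 (adjusted p = 0.00076). Members that went up included KLF4, a differentiation factor of gut epithelium, at 0.60, and MYC at 0.56, with MYC at 815, 759 and 679 CPM in HS and 1326, 981 and 1015 CPM in HS + REC.

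The CArG box bound by serum response factor was matched in the 250 bases upstream of 4 of 83 lowered genes (4.82%), among them EGR1 and PDGFA, of 1 of 79 raised genes (1.27%) and of 1.03% of all. The EGR1 promoter at chr5:138465229-138465478 (plus strand) carries 2 in this window, from base 105 to 96 and from base 83 to 74 before the start, shown in capitals because EGR1 was the most abundant of the lowered genes after HSPA6 in mean level.
EGR1: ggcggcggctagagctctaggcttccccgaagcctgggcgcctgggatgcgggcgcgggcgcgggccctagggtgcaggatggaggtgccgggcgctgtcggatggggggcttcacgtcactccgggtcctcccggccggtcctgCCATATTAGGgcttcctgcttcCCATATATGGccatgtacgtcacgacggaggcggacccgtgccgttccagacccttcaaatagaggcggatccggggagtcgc

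Some genes that end signalling fell as well. The lists share members, and DUSP1 is also counted among the immediate early genes. Of 17 tested genes with DUSP symbols (dual specificity phosphatases), some of which dephosphorylate MAP kinases, 4 were lowered, beside 0.827% of all genes. At FDR alone 6 were lower and none higher (1 higher without HS replicate 3), beside 13.7% of all genes each way. The other 11 did not pass, and the median was -0.19. DUSP1 measured 63.7, 75.5 and 75 CPM in HS and 20.8, 24.4 and 30.4 CPM in HS + REC, a change of -1.5 (standard error 0.15, adjusted p = 5.9e-08), and stayed above its Ctrl level of 6.57 ± 0.538 CPM. DUSP6, which acts on ERK, measured 189, 184 and 166 CPM in HS and 70.0, 72.9 and 68.8 CPM in HS + REC and ended below Ctrl (101, 95.6 and 90.8 CPM). DUSP5 and DUSP2 changed by -1.26 and -1.13. ZFP36, tristetraprolin, which directs decay of mRNAs with AU-rich elements, fell from 37.1, 39.0 and 32.1 CPM to 9.27, 9.11 and 8.75 CPM, against 11.2, 11.5 and 10.8 CPM in Ctrl. Its log2 change was -2.00 (standard error 0.08, adjusted p = 3.2e-14).

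A list of 20 sprouty, SOCS and RNA-decay genes was put together after these values were seen. It had 7 lowered, 13 lower and 2 higher at FDR alone (1 higher without HS replicate 1), beside 0.827%, 13.7% and 13.7% of all genes. Because its members were picked with the values known, these counts are a description and no evidence that such genes fell as a class. SPRY4, an inhibitor of receptor tyrosine kinase signals, measured 123, 123 and 102 CPM in HS and 38.1, 37.8 and 34.8 CPM in HS + REC. SOCS3 and SOCS1, inhibitors of cytokine receptors, changed by -1.57 and -2.01, SOCS1 exceeding 1 CPM in HS libraries alone, and ZC3H12A, the RNase Regnase-1, by -1.38. SPRY2, by contrast in level, stayed at 69.3, 66.6 and 64.3 CPM in HS and 66.4, 61.0 and 62.9 CPM in HS + REC, and its groups overlapped. In the 13 NF-kB targets tested 1 was lowered, 7 lower and 2 higher at FDR alone, and without HS replicate 2 these were none, 4 and 1. The 2 higher (15.4%) lay near the 13.7% of all genes. The lowered one was CXCL1, a chemokine, at -1.01, between -1.12 and -0.90 without each library in turn and not past 2-fold without HS replicate 2, HS + REC replicate 2 or HS + REC replicate 3. Of 11 ID, Notch and TGF-beta early targets 1 was lowered, 5 were lower and 1 higher at FDR alone, and 3 were lower without HS + REC replicate 2 and none higher without HS replicate 2, with 13.7% of all genes each way. ID1, an inhibitor of differentiation factors, fell from 92.6 ± 4.36 CPM to 34.0 ± 5.71 CPM (SD, n = 3 libraries), and BTG2, an antiproliferative gene, changed by -1.22.

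Some lowered genes ended below the unheated level. PDGFA, a platelet-derived growth factor chain, had 92.8, 94.0 and 90.9 CPM in Ctrl, 73.8, 74.9 and 69.4 CPM in HS and 22.9, 23.0 and 23.7 CPM in HS + REC, and HAS3, a hyaluronan synthase, had 106, 108 and 101 CPM in HS and 44.3, 36.9 and 38.9 CPM in HS + REC. Both were named after their values were seen, with changes of -1.65 and -1.39. TAGLN, transgelin, an actin-binding SRF target, fell by 1.19 on the log2 scale from 13.3, 11.5 and 12.6 CPM in HS to 5.41, 5.30 and 5.63 CPM in HS + REC, below the 18.2, 19.1 and 15.9 CPM of Ctrl.

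Of 364 tested zinc finger genes with ZNF symbols, most of them encoding DNA-binding repressors, 17 were lowered and none raised past 2-fold, 185 (50.8%) were lower and 18 (4.95%) higher at FDR alone, beside 13.7% each of all genes, and the median was -0.27. The 18 higher became 11 without HS replicate 1 and 10 without HS replicate 2. Summed over the symbols in the table they made up 8714 to 9130 CPM in the HS libraries and 7654 to 7938 CPM in the HS + REC libraries, so that the groups did not overlap. The 4 with the largest changes were ZNF443 at -1.68, ZNF112 at -1.67, ZNF235 at -1.35 and ZNF792 at -1.24. The median of the list in HS was 0.33 against Ctrl, and after recovery its median stood at 0.04 against Ctrl. Counts on library size alone gave a list median of -0.32.

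**Figure D3:**
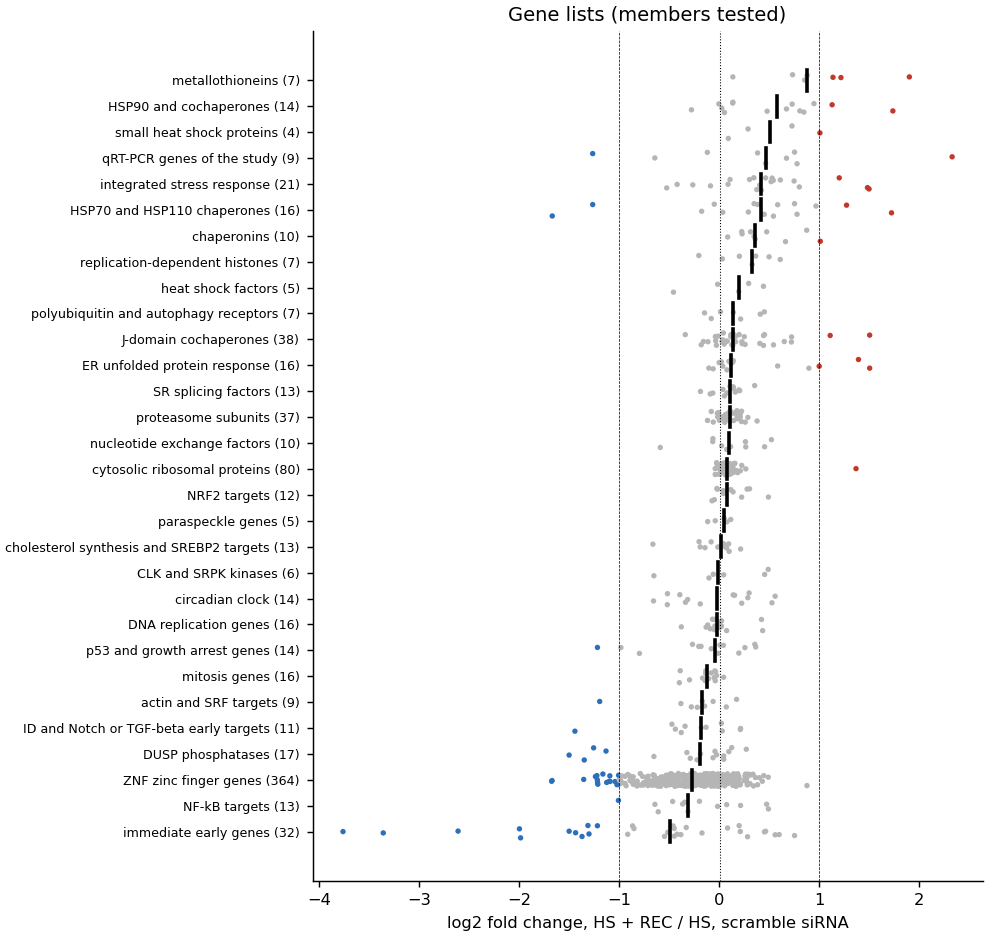
Log2 fold change of HS + REC over HS for the tested members of each gene list (points, red for raised and blue for lowered past 2-fold at the FDR limit), with a black bar at each list's median, the number of members in brackets and a dotted line at the median of all genes. Metallothioneins and HSP90 with its cochaperones lie at the top with medians of 0.88 and 0.58, and immediate early genes at the bottom with a median of -0.49.

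Rows for small nucleolar RNAs, which guide modification of ribosomal RNA and mostly lie in introns of host genes, moved in both directions. The libraries were made with a stranded mRNA kit according to the methods of the study, and the labels also name total RNA. Of 36 rows tested, 8 were raised and 5 lowered, 15 higher and 6 lower at FDR alone, beside 0.859%, 0.827%, 13.7% and 13.7% of all genes, and this list was chosen after values were seen. Of the 8 raised rows 6 exceeded 1 CPM in HS + REC libraries alone, SNORD31, SNORD47, SNORD22 and SNORA33 among them, and of the 5 lowered rows SNORD14E did so in HS libraries alone, so that these counts partly follow from the filter. SNORD14C, SNORD14D and SNORD14E lie in introns of HSPA8 (chr11:123059335-123059422, chr11:123058909-123058995 and chr11:123058077-123058161, minus strand, GENCODE on hg38) and changed by -2.10, -2.57 and -2.67. SNORD14E had 0.265, 0.209 and 0.285 CPM in Ctrl, 2.75, 3.01 and 2.93 CPM in HS and 0.462, 0.367 and 0.516 CPM in HS + REC. SNORA29, in an intron of the chaperonin gene TCP1 (chr6:159785594-159785733, minus strand), changed by -2.40.

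The exonic counts of both host genes went up in the same hour, HSPA8 by 0.54 and TCP1 by 0.66. Reads of a small nucleolar RNA and of host RNA that still held the intron cannot be told apart in these rows. SNORA4, in an intron of EIF4A2, fell by 1.11 on the log2 scale and was short of 2-fold only without HS + REC replicate 3 (-0.97). The raised rows included SNORD31 at 0.635, 0.869 and 0.755 CPM in HS and 2.5, 2.86 and 2.30 CPM in HS + REC, SNORD47 with a change of 1.80, SNORD22 with 1.49 and SNORA33, in an intron of RPS12, with 1.41. In these the HS level was the lowest of the 3 conditions, and SNORD31 had 2.29, 2.47 and 2.71 CPM in Ctrl. RNA45S5, a ribosomal RNA precursor of which the genome holds many copies, was at 1.38, 2.01 and 1.45 CPM in HS and at 0.0693, 0.122 and 1.08 CPM in HS + REC, with HS + REC replicate 3 apart from the others, and its change of -1.88 became -4.03 without that library. DESeq2 did not call it (adjusted p = 0.079).

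The remaining lists had at most 1 gene past 2-fold. Of 80 cytosolic ribosomal protein genes 1 was raised and 76 passed no FDR, with 4 higher at FDR alone, a number that ran from 1 without HS replicate 2 to 24 without HS replicate 3 and moved by over 1.5 times without each of the 6 libraries. The raised one was RPL36A at 1.37 from 1.61 ± 0.196 CPM (SD, n = 3 libraries). No member passed 2-fold among 16 DNA replication genes, 16 mitosis genes, 13 cholesterol synthesis and SREBP2 targets, 12 NRF2 targets, 14 circadian clock genes, 13 SR splicing factors, 6 CLK and SRPK kinases, 7 replication-dependent histones or 5 paraspeckle genes. At FDR alone these gave 2 higher and 1 lower for DNA replication, none and 3 for mitosis, 1 and 2 for cholesterol genes, 3 and none for NRF2 targets, and 4 and 6 for the clock. SR factors gave 4 and 1, the kinases 2 and 1, histones 4 and none, and no paraspeckle gene passed. Of these, 4 clock genes higher became 2 without HS replicate 3, 4 SR factors higher became 2 without HS replicate 1 or 2, with none lower without HS + REC replicate 3, and 4 histones higher became 2 without HS replicate 2 or HS + REC replicate 1. The cholesterol genes had none higher without HS replicate 2 and 1 lower without HS replicate 1, HS replicate 2 or HS + REC replicate 2. With 13.7% of all genes higher and 13.7% lower, the shares of the DNA replication, mitosis and cholesterol lists lay near the background and say nothing about their members. Among their members with the largest changes were CDC6, which loads the replicative helicase, at 0.44, KIF11, a spindle motor, at -0.40, HMOX1, heme oxygenase 1, at 0.49, RORA, a nuclear receptor of the clock, at -0.66, TRA2B at 0.36, CLK1, a kinase of SR proteins, at -0.65, the histone gene HIST1H2BJ at 0.61 and MALAT1 at 0.12. All of these but MALAT1 passed FDR, and HIST1H2BJ did not without HS replicate 2 or HS + REC replicate 1 (highest adjusted p = 0.13, edgeR). Of 14 p53 and growth arrest genes 1 was lowered (2 without HS replicate 3 or HS + REC replicate 3), and 3 were higher and 4 lower at FDR alone. The lowered one, BTG2, is also counted among the immediate early genes. Of 9 actin and SRF targets 1 was lowered, TAGLN, and none was higher and 4 (44.4%) were lower at FDR alone, beside 13.7% of all genes.

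Lowered genes had shorter spans and fewer exons in the annotation than the genes tested as a whole. Among 94 of the 103 lowered genes matched to GENCODE, the median gene span was 16.8 kb and the median number of exons of the canonical transcript 4, against 33.0 kb and 9 for 11485 genes tested. For 98 of the 107 raised genes these were 23.7 kb and 7.5. The 30 matched immediate early genes had a median span of 6.38 kb and 3 exons, and the matched ZNF genes 26.1 kb and 5, over whole lists of which most members were not lowered. These are descriptions of the annotation with no test.

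Whether genes that heat had raised went back was asked with heat-responsive genes chosen in the siLonp1 arm, whose libraries the scramble comparison does not use. In that arm 410 genes (3.29%) were raised and 124 (0.995%) lowered in HS against Ctrl. In scramble recovery 31 of the 410 heat-raised genes rose (7.56%) and 45 fell (11%), against 0.859% and 0.827% of all genes tested. At FDR alone 123 of them were higher (30.0%) and 133 lower (32.4%), beside 13.7% of all genes each way. Their median change was 0.00, with quartiles at -0.47 and 0.41 against -0.13 and 0.12 for all genes. Heat-raised genes were thus found on both sides, with chaperones such as HSPH1 and FKBP4 on one side and FOS, EGR1 and DUSP1 on the other. Of the 124 heat-lowered genes 12 rose (9.68%) and 1 fell (0.806%), and the median was 0.12. At FDR alone 45 were higher (36.3%) and 14 lower (11.3%). The shares that fell and that were lower lay near the 0.827% and 13.7% of all genes.

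**Figure D4:**
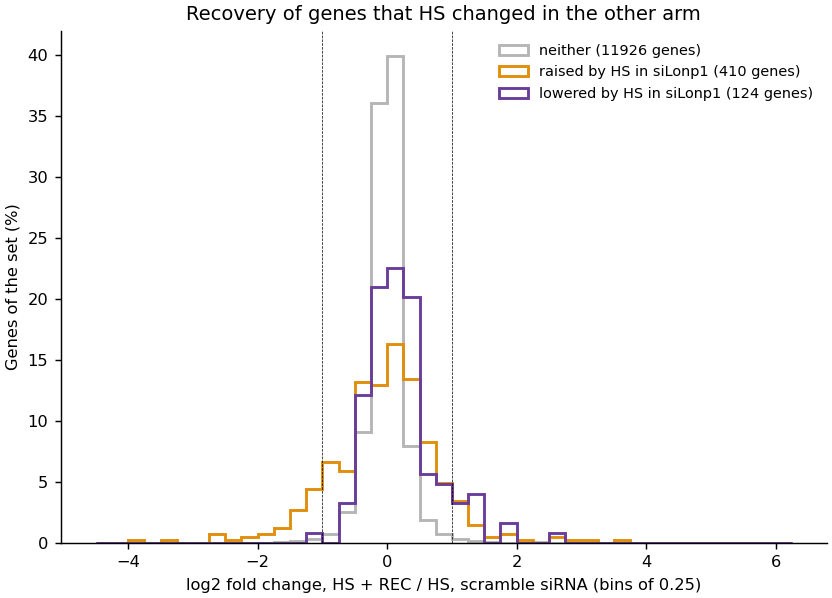
Distribution of the log2 fold change of HS + REC over HS in scramble siRNA cells (horizontal axis, bins of 0.25) as a percentage of each gene set (vertical axis), for genes raised (orange, 410) or lowered (purple, 124) by HS in the siLonp1 arm and for the other genes tested (grey). The orange outline is wider on both sides than the grey one, with quartiles at -0.47 and 0.41, and the purple outline has its longer tail on the side of higher values.

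The same recovery step in siLonp1 cells, in libraries of their own, raised 193 genes (1.55%) and lowered 91 (0.73%). Of the 107 genes raised with scramble siRNA 87 were also raised with siLonp1, which is 81.3% of the scramble list and 45.1% of the siLonp1 list. Of the 103 lowered 56 were lowered in both, or 54.4% and 61.5%. All 107 and all 103 had the same sign in siLonp1, and 107 and 98 of them also passed FDR there, where 74.7% of all genes had the same sign in both arms. Across the 12460 genes, which are not independent replicates, Pearson's r between the effects was 0.815 and Spearman's rho 0.714, given as a description. FOS fell by 3.95 on the log2 scale in siLonp1, and HSPH1 and HERPUD1 rose by 1.12 and 1.40.

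A difference between the arms in the size of the step was found for 186 genes (1.49%), of which 148 had the lower value in scramble and 38 the higher. The difference exceeded 2-fold for 18 and 4 of these. ABTB2, for instance, rose by 2.36 with scramble siRNA and by 3.20 with siLonp1. This number of genes ranged from 86 without HS scramble replicate 1 and 99 without HS scramble replicate 2 to 280 without HS scramble replicate 3 and 304 without HS + REC scramble replicate 3. The raised and lowered lists were less dependent on single libraries, with 99 to 115 and 92 to 116 genes, and 78 of the 107 and 74 of the 103 were called in each of the 6 fits that left out 1 library.

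**Figure D5:**
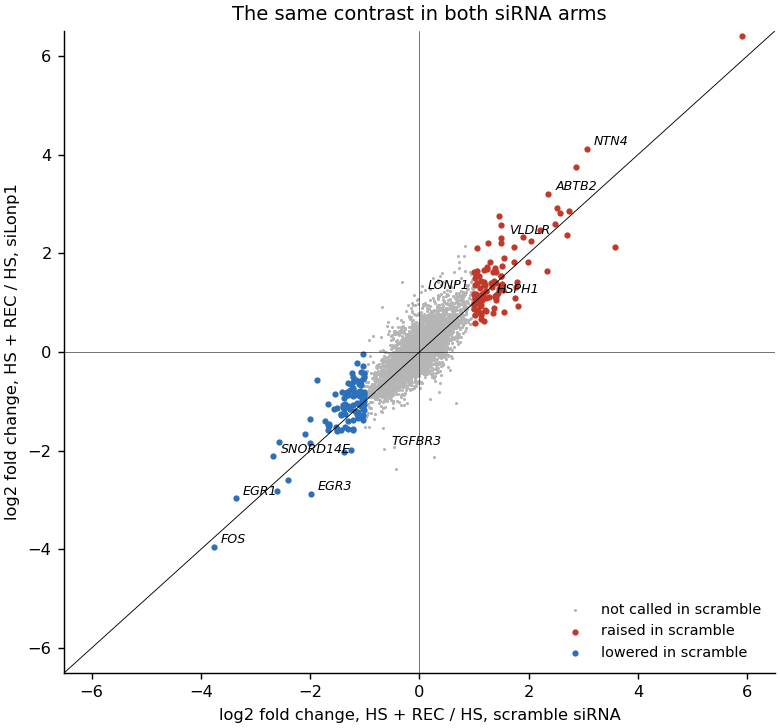
Log2 fold change of HS + REC over HS in scramble siRNA cells (horizontal axis) and in siLonp1 cells (vertical axis), with each point a gene, red and blue for genes raised and lowered with scramble siRNA, and the diagonal marking equal changes. All red points lie above and all blue points below 0 on the siLonp1 axis, and ABTB2, VLDLR, EGR3, LONP1 and TGFBR3 are labelled among the genes that differ between the arms.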

How the data were processed

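RNAseq libraries were prepared by the authors with a stranded mRNA kit as paired ends, aligned to hg38 with STAR 2.7.3a and assigned to UCSC genes with featureCounts, per the labels and the methods of the paper. The deposited values are raw counts per gene symbol without normalization. The strand setting, the treatment of reads shared between genes and any removal of duplicates are not given in the sources used here, so intervals from counts would cover counting error only. The labels name no batch.

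The treatment text in the labels names heat and recovery for every sample alike, so groups were taken from the condition and title of each. All 18 libraries were matched to these by column name, and replicates of a group differed by more than counting error (chi-square per degree of freedom 4.22 to 23.9). Libraries held 30815860 to 47279297 counts in the 6 scramble HS and HS + REC samples. Genes above 1 CPM in at least 3 of these 6 were tested with the edgeR 4.0.16 quasi-likelihood test (R 4.3.3, TMM factors, prior count 0.125) in a single model with a mean for each of the 6 groups. Adjusted p-values are Benjamini-Hochberg values over the 12460 genes, and genes were called at an FDR of 0.05 with a fold change above 2. The common biological coefficient of variation was 0.0656. CPM in the text are scaled by TMM. Errors after ± are SDs of 3 libraries.

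The genes named are the 10 largest rises and falls with a mean of at least 1 CPM and no overlap between groups, up to 4 called members of each list (or the member that moved most), LONP1, HSF1, HSF2, RPS18 and the 9 qRT-PCR targets, apart from those said to be named after their values were seen, and 1 gene under this rule is not reported here. Members, lists and tests were chosen with earlier results of these data known. Promoters are from RefSeq, and gene positions from GENCODE v44, of which 92.2% of the genes tested were matched for spans. DESeq2 1.42.0 and other settings served as alternatives. The scripts were tested on simulated data.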

Additional observations from a re-analysis of the deposited data

Results flagged for a closer look

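For 11 of the genes named in the report the recovery effect differed between the siRNA arms by a test of the difference itself. It took scramble minus siLonp1 in the 18-library model (edgeR with Benjamini-Hochberg adjustment over all genes). Of all 12460 genes 186 (1.49%) differed, a number that ran from 86 to 304 without each library in turn and was 65 at FDR 0.01. Whether each of the 11 keeps its call in those settings was not examined. The difference was -0.84 on the log2 scale for ABTB2, -0.82 for VLDLR, -0.81 for the zinc finger gene ZNF792 and -0.39 for CDC6. ABTB2, VLDLR and CDC6 rose in both arms and rose more with siLonp1. DUSP6 and DUSP5 had differences of -0.48 and -0.48, with the larger fall in scramble cells in each case. EGR3 differed by 0.89 and TGFBR3 by 1.32, and both fell more with siLonp1. LONP1, the target of the siRNA, differed by -1.19, with a change of 0.02 in scramble and 1.21 in siLonp1 cells. ZC3H12A differed by 0.64, with the larger fall in siLonp1 cells, and SPRY2 by -0.31, with a change of -0.07 in scramble and 0.24 in siLonp1 cells.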

How the results depend on the processing

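No called gene reversed its direction under any alternative listed here. Among genes named that did not pass, the change lay on both sides of 0 without each library in turn for HSF1 (-0.08 to 0.05), LONP1 (-0.04 to 0.09) and MALAT1 (-0.0012 to 0.27), and LONP1 stood at -0.03 with library size only. RLE factors, library size only, DESeq2, a filter over 18 libraries, FDR 0.01 and a fit of the 6 libraries alone left the numbers of raised and lowered genes within 1.5 times. DESeq2 called 106 of the 107 raised and 102 of the 103 lowered genes. With the replicate block, 105 and 103 genes were raised and lowered in scramble, 193 and 94 in siLonp1, and 141 differed between the arms. Same-numbered HS and HS + REC libraries deviated together with r of 0.315, -0.181 and 0.142, so the numbers were not taken to pair them. With every detected gene tested, 285 were raised in scramble and 466 in siLonp1, and 58 heat-raised and 33 heat-lowered genes rose (19 heat-lowered with the CPM filter over 18 libraries). Without a fold limit 1712 genes rose and 1705 fell in scramble (13.7% of all genes each) and 2004 and 2033 in siLonp1. With the fold limit also dropped in the choice of heat-responsive genes, 508 heat-raised genes rose and 639 fell. Of the heat-lowered genes chosen in that way 426 rose and 425 fell. These heat-responsive sets are larger than the 410 and 124 genes used above. Their sizes are not given, so that no share can be read from these counts. The number differing between arms was 309 with DESeq2 and 65 at FDR 0.01. Without each library in turn it ranged from 86 to 304, raised genes from 99 to 115, lowered genes from 92 to 116, heat-raised genes that rose from 27 to 37 and that fell from 40 to 50, and heat-lowered genes that rose from 9 to 13. The cause of these shifts was not tested. At the lowest depth, 30815860 counts, 1 CPM is about 30.8 counts, which limits the precision for genes such as CREB3L3 and NTN4.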

Other observations

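Further genes changed past both limits and kept the call in each fit that left out 1 of the 6 libraries, and those named here were chosen after their values were seen. NID1, nidogen 1 of basement membranes, measured 24.5, 23.8 and 20.6 CPM in HS and 57.8, 71.2 and 70.0 CPM in HS + REC, a change of 1.52, and P4HA2, a collagen prolyl hydroxylase, changed by 1.21. COL26A1, a collagen gene, went from 0.733 ± 0.169 CPM to 2.91 ± 0.681 CPM (SD, n = 3 libraries), exceeding 1 CPM in HS + REC libraries alone. In the same libraries the summed fibroblast markers went from 42.6 to 45.9 CPM in HS to 62.1 to 62.4 CPM in HS + REC, with COL1A1 at 0.81, and their part in these values was not tested. KLHL25, an adaptor of a cullin 3 ubiquitin ligase, rose from 103, 107 and 101 CPM to 241, 257 and 303 CPM after 19.8, 22.3 and 20.6 CPM in Ctrl.

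On the lowered side TXNIP, the thioredoxin-binding protein that limits glucose uptake, measured 208, 187 and 193 CPM in Ctrl, 851, 816 and 871 CPM in HS and 356, 405 and 405 CPM in HS + REC, so that it fell by 1.12 on the log2 scale and stayed above Ctrl. FAM46A, which encodes a member of the non-canonical poly(A) polymerases, fell from 118, 121 and 119 CPM to 41.7, 47.5 and 42.3 CPM and also stayed above the 15.2, 13.4 and 14.7 CPM of Ctrl. ATXN7, a subunit of the SAGA histone-modifying complex, changed by -1.37 and ended at 21.6 ± 2.01 CPM against 26.8 ± 1.19 CPM in Ctrl.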
